A study of Mus musculus with 11 samples.

Results

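The beta subunits and FXYD regulators of the sodium pump were followed in the tibialis anterior of mice, a fast-twitch shin muscle, after its nerve supply was removed. The 6 genes Atp1b1, Atp1b2, Atp1b3, Atp1b4, Fxyd1 and Fxyd5 were taken by symbol. All 11 probe sets annotated to them were used, of 45101 probe sets on the Affymetrix array, and the 6 genes were among 18194 annotated ones. Each probe set binds with its own strength, so levels were compared only within a probe set. RNA was measured on 11 arrays: denervated runx1f/-; MCK::cre muscle (3 arrays), denervated runx1f/- control muscle (3), innervated runx1f/-; MCK::cre muscle (2) and innervated runx1f/- control muscle (3). Every mouse, controls included, carried the runx1f/- genotype, which is a floxed Runx1 allele over a second Runx1 allele written as minus. The mutants also carried MCK::cre, a transgene expressing Cre from the promoter of muscle creatine kinase, which is active in differentiated fibres, so cells other than fibres are not the target of that Cre and may keep the floxed allele. The titles give 3 days of denervation. One treatment note, that of denervated control 3, gives 5 days instead. Age, sex, strain and pooling of animals are not given in the sources used here, and nothing there says whether arrays came from separate animals, so p-values measure the spread between these samples.

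The sodium pump (Na,K-ATPase) is a plasma membrane enzyme that uses ATP to move sodium out of the cell and potassium in. In muscle fibres it restores both gradients after action potentials and so keeps the fibre excitable during work. A catalytic alpha subunit does the pumping, and a glycosylated beta subunit is needed for it to fold, leave the endoplasmic reticulum and reach the surface. Small single-span FXYD proteins bind the assembled pump and tune its affinity and rate. Atp1b1 and Atp1b2 encode the beta subunits best known from muscle, and Atp1b3 encodes a more widely expressed one. Atp1b4 belongs to the same family by sequence, but in placental mammals its protein is no longer a pump subunit and lies in the inner nuclear membrane of muscle cells. Fxyd1 encodes phospholemman, the main FXYD protein of heart and skeletal muscle, which restrains the pump until it is phosphorylated. Fxyd5 encodes dysadherin, a FXYD protein best known from epithelia, where it alters pump activity and cell adhesion.

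The promoters of the genes with the largest changes are shown first, because Runx1 is the gene altered in the mutants and its protein binds DNA at RUNX motifs. Promoter windows of 300 bases, running from 250 before to 50 after a transcript start, were taken from RefSeq on GRCm38.p6, and 5 of the 6 genes matched (Atp1b1, Atp1b3, Atp1b4, Fxyd1 and Fxyd5). Both strands were searched for the RUNX letters TGTGGT and TGCGGT, for E-boxes (CANNTG, bound by myogenic factors among others) and for the MEF2 motif, and the motifs did not overlap each other in the windows printed. In Atp1b1 (GRCm38.p6 chr1:164458306-164458605, minus strand) the capitals mark the RUNX letters. In Atp1b4 (GRCm38.p6 chrX:38315872-38316171, plus strand) they mark E-boxes. Both are written 5' to 3' along the gene.
Atp1b1: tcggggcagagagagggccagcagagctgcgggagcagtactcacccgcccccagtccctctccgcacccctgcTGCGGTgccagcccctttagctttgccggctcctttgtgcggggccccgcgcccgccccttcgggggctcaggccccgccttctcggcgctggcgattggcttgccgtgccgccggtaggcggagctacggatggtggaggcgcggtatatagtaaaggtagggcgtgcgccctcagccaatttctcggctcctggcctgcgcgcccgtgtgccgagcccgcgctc
Atp1b4: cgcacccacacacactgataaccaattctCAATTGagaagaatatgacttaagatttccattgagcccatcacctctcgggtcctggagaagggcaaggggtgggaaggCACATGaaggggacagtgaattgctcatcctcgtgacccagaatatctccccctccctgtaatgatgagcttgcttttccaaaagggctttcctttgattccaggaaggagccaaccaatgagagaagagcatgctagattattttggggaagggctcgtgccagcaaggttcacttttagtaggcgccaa
The TGCGGT of Atp1b1 lay 176 to 171 bases before the start and was the only match to the RUNX letters among the windows of the 5 genes. TGCGGT was present in 6.45% and TGTGGT in 16.8% of 32851 promoter windows of the same length. Atp1b4 held the E-boxes CAATTG and CACATG, whereas Atp1b1 and Fxyd1 held none. Each of the 2 windows of Atp1b3 held 1 E-box, and Fxyd5 held CATCTG 10 to 15 bases after its start. E-boxes were present in 72.3% of the 32851 windows and the MEF2 motif in 3.19%, and none of the 5 genes had a MEF2 match. The start used for Fxyd1 and for the second window of Atp1b3 lies inside the gene's span, downstream of its outermost start. A match describes letters in these windows and was not tied to binding of any factor.

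The beta subunit genes lay apart from each other, with Atp1b1 at chr1:164437099-164458355, Atp1b2 at chr11:69599728-69605978, Atp1b3 at chr9:96332655-96364431 and Atp1b4 at chrX:38316122-38336784 (GRCm38.p6). Fxyd5 (chr7:31032723-31042331) and Fxyd1 (chr7:31051678-31055873) were neighbours, with Fxyd7 between them. Gaps of 183 bases (Fxyd5 to Fxyd7) and 223 bases (Fxyd7 to Fxyd1) separated the 3 genes.

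The deposited values were probe set signals in intensity units, scaled to a 2% trimmed mean of 2500 on each array, and array medians lay between 442.5 and 604.6. The signal of the highest bacterial trp control probe set, taken here as background, was 97.12 to 440 on the 11 arrays. The brightest Runx1 probe set read 20403 to 23185 in denervated MCK::cre muscle and 23499 to 25898 in denervated control muscle, against 288 to 395 in innervated MCK::cre muscle and 179 to 519 in innervated control muscle. Where this probe set lies relative to the deleted part of Runx1 is not known here, so it does not check the genotype labels. All 10 fibre markers, such as Ckm and Acta1, were present, and their summed signal was 1528000 to 1907000 in denervated MCK::cre and 1479000 to 2115000 in denervated control muscle, against 2417000 to 2716000 in innervated MCK::cre and 2231000 to 2538000 in innervated control muscle. The sum of 14 leukocyte and macrophage markers was 113800 to 126400 in denervated MCK::cre and 90570 to 129500 in denervated control muscle, against 24790 to 26960 in innervated MCK::cre and 29990 to 43900 in innervated control muscle. The sum of 7 satellite cell and myoblast markers was 89280 to 103200 in denervated MCK::cre and 85970 to 125800 in denervated control muscle, against 8252 to 14280 in innervated MCK::cre and 9767 to 11530 in innervated control muscle. The median marker moved less than these sums: of the leukocyte list 12 of 14 were called higher in MCK::cre (median log2 change 1.46) and 5 of 14 in control muscle (median 0.65), and of the satellite cell list 4 of 7 in MCK::cre (median 1.27) and 5 of 7 in control muscle (median 1.19). The sum of 8 endothelial markers was 24330 to 25870 in denervated MCK::cre and 21670 to 25070 in denervated control muscle, against 35930 to 36070 in innervated MCK::cre and 36430 to 39120 in innervated control muscle, and 3 of 8 were called lower in MCK::cre and 6 of 8 in control muscle. The sum of 8 fibroblast markers was 229700 to 338700 in denervated MCK::cre and 213400 to 279200 in denervated control muscle, against 380400 to 400100 in innervated MCK::cre and 238600 to 340900 in innervated control muscle. Of these 8, 1 was called higher and 1 lower in MCK::cre, and 1 higher and 0 lower in control muscle. Shares called over all probe sets were 26.3% in MCK::cre and 29.3% in control muscle, with 13.3% and 14.4% called lower. No marker of these lists lay at or below the highest trp control on every array of a group. In bulk muscle, fewer cells of a type and less RNA per cell cannot be told apart, and the part of these shifts in the results below was not tested.

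Differences between groups were tested with limma on log2(signal + 16) over 26170 probe sets that lay above their array's median on at least 2 arrays, and a probe set was called at a Benjamini-Hochberg adjusted p of 0.05 over all of them. Of the 11 probe sets, 10 passed this filter. Denervation in control muscle gave 8 calls among the 10: 7 lower (the 4 of Atp1b1, the pair of Atp1b2 and that of Atp1b4) and 1 higher (Atp1b3). Of all probe sets tested, 29.3% were called in either direction and 14.4% were called lower. In MCK::cre muscle, 7 of the 10 were called, all of them lower and all of Atp1b1, Atp1b2 and Atp1b4, against 26.3% called in either direction and 13.3% called lower over the whole array. The median log2 change of the 10 was -1.22 in MCK::cre and -1.95 in control muscle, beside medians over all probe sets of -0.093 in MCK::cre and -0.023 in control muscle. Atp1b4 passed the filter only because of its innervated arrays, so it was bound to differ. Without it, 6 of 9 were called in MCK::cre muscle, all lower, with a median of -1.13, and 7 of 9 in control muscle, 6 lower and 1 higher, with a median of -1.48. These counts and medians weigh Atp1b1 4 times. With the brightest kept probe set for each gene, 3 of 6 genes were called in MCK::cre and 4 of 6 in control muscle, Atp1b4 included. Apart from Atp1b4, those changes in MCK::cre were -1.62 (Atp1b1), -1.03 (Atp1b2), 0.43 (Atp1b3), -0.39 (Fxyd1) and 0.51 (Fxyd5). In control muscle they were -2.42, -1.47, 0.61, -0.65 and 0.22 in the same order.

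**Figure D1:**
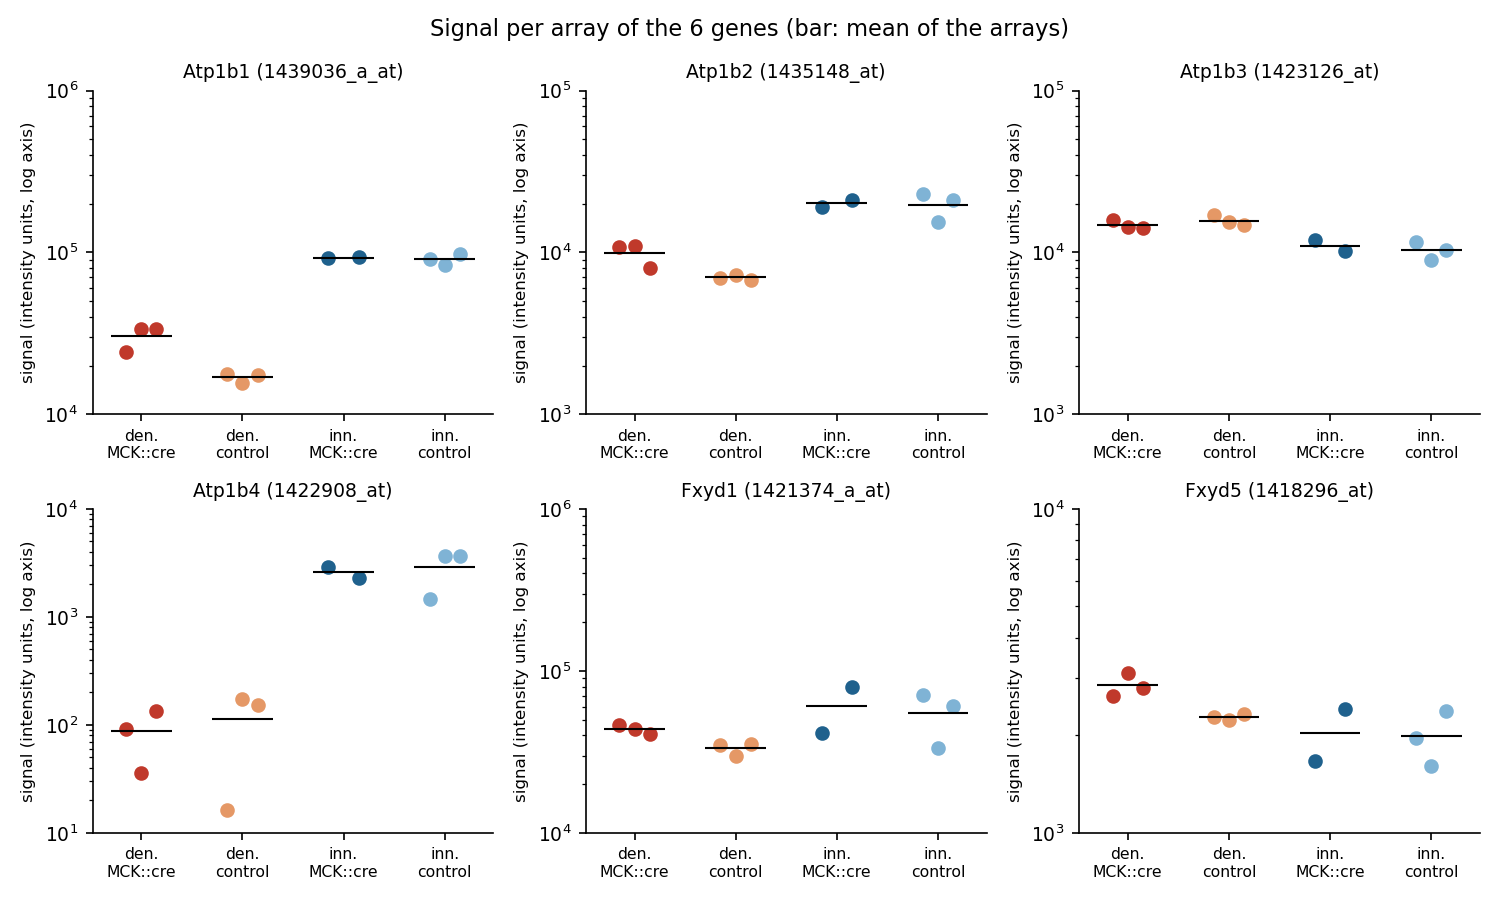
Signal of the representative probe set of each gene (log axis, intensity units) on every array, with the groups in the order denervated MCK::cre, denervated control, innervated MCK::cre, innervated control and a bar at each mean. Atp1b1 lay between 15548.4 and 33841.7 on the 6 denervated arrays and between 83767.2 and 97720.4 on the 5 innervated arrays, Atp1b4 fell to the range of the background controls, and Atp1b3 ran the other way.

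Atp1b1 fell several-fold with denervation in both genotypes. Its brightest probe set, 1439036_a_at, read 24220.2, 33647.3 and 33841.7 in denervated MCK::cre muscle and 17828.2, 15548.4 and 17361.8 in denervated control muscle. The innervated arrays read 91876.0 and 93755.0 in MCK::cre and 90814.8, 83767.2 and 97720.4 in control muscle. Every denervated array was below every innervated one, and the denervated control arrays were below all denervated MCK::cre arrays. In MCK::cre muscle the log2 change was -1.62 ± 0.16 (SE; 3.07-fold lower; limma adjusted p = 1.11e-05). In control muscle it was -2.42 ± 0.14 (5.36-fold lower; limma adjusted p = 9.22e-08). The other 3 probe sets that passed the filter were 2.57, 2.19 and 2.48-fold lower in MCK::cre muscle and 5.57, 6.38 and 6.16-fold lower in control muscle (1418453_a_at, 1423890_x_at and 1451152_a_at). With denervated and innervated arrays exchanged only within genotype, the exact permutation p was 0.005 for each of the 4, the smallest that 200 splits allow, and the same test was run on all 10 probe sets. The probe sets 1423890_x_at and 1451152_a_at were designed from the same transcript record, so the 4 are repeat measures of 1 gene. In MCK::cre muscle the call of 1423890_x_at was lost when either innervated array was left out (-1.17, adjusted p = 0.0507 without array 1; -1.10, adjusted p = 0.0673 without array 2). Centring each array on its hybridisation spike-in controls moved the median change of all probe sets to 0.37 in MCK::cre and 0.80 in control muscle. The change of 1439036_a_at was then -1.14 in MCK::cre (adjusted p = 0.00101) and -1.59 in control muscle (adjusted p = 8.96e-06), and 1423890_x_at was no longer called in MCK::cre muscle (-0.66, adjusted p = 0.11).

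The fifth Atp1b1 probe set, 1455949_at, was above its array's median on 1 array and was not tested with the others. Its signal was 491.8, 23.7 and 298.0 in denervated MCK::cre muscle and 391.8, 294.5 and 234.0 in denervated control muscle, against 383.9 and 536.3 in innervated MCK::cre muscle and 652.0, 202.3 and 501.2 in innervated control muscle. The groups overlapped, and several of these signals lay within the range of the trp controls. Fitted without the filter, its difference with denervation was -1.34 ± 0.84 in MCK::cre (limma adjusted p = 0.345) and -0.42 ± 0.75 in control muscle (limma adjusted p = 0.803).

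After denervation, Atp1b1 was higher in muscle with MCK::cre than in control muscle. Denervated MCK::cre muscle averaged 30570 ± 5500 and denervated control muscle 16910 ± 1204 on 1439036_a_at (SD, n = 3 each), a log2 difference of 0.84 ± 0.14 (1.79-fold higher; limma adjusted p = 0.00787). On 1418453_a_at the 3 denervated MCK::cre arrays read 10600.8, 18278.7 and 18745.5, against 7521.9, 6186.0 and 7394.4 in denervated control muscle (2.19-fold higher; limma adjusted p = 0.00757). The signals of 1423890_x_at were 10511.0, 17758.7 and 21607.1 in denervated MCK::cre muscle, against 6069.6, 4952.3 and 8191.6 in denervated control muscle (2.54-fold higher; limma adjusted p = 0.015). Those of 1451152_a_at were 9743.9, 14214.3 and 13875.0 in denervated MCK::cre muscle, against 5067.9, 4454.7 and 6285.9 in denervated control muscle (2.38-fold higher; limma adjusted p = 0.00757). The groups did not overlap on any of the 4, and denervated MCK::cre array 1 was the lowest of its group on each. These were the only 4 calls among the 10 probe sets for genotype in denervated muscle, where 1.83% of all probe sets were called. An exact permutation test of 3 against 3 arrays cannot go below 0.1, which is the value each of the 4 reached.

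In innervated muscle Atp1b1 did not differ detectably between genotypes. It averaged 92820 ± 1329 in innervated MCK::cre (SD, n = 2) and 90770 ± 6977 in innervated control muscle (SD, n = 3) on 1439036_a_at, a log2 difference of 0.03 with a 95% interval from -0.31 to 0.38. None of the 10 probe sets was called there by limma, beside 0% of the whole array. At an unadjusted p under 0.05 the counts were 0 of the 10 and 1030 of all probe sets. As a share of the innervated mean of its own genotype, Atp1b1 stood at 26.1% to 61.8% on the 3 denervated MCK::cre arrays and at 12.2% to 20.1% on the 3 denervated control arrays, over 4 probe sets. The test of that difference is the interaction, the denervation change in MCK::cre minus that in control muscle. For 1439036_a_at it was 0.80 ± 0.21 on the log2 scale (95% interval 0.34 to 1.26; limma adjusted p = 0.219), and it did not pass the threshold. The adjusted p of the other 3 was 0.192, 0.168 and 0.151, so no Atp1b1 probe set, and 0 of the 10 in all, was called for the interaction. By comparison 0.248% of all probe sets were called, and at an unadjusted p under 0.05 the counts were 4 of the 10, all Atp1b1, and 2017 overall.

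**Figure D2:**
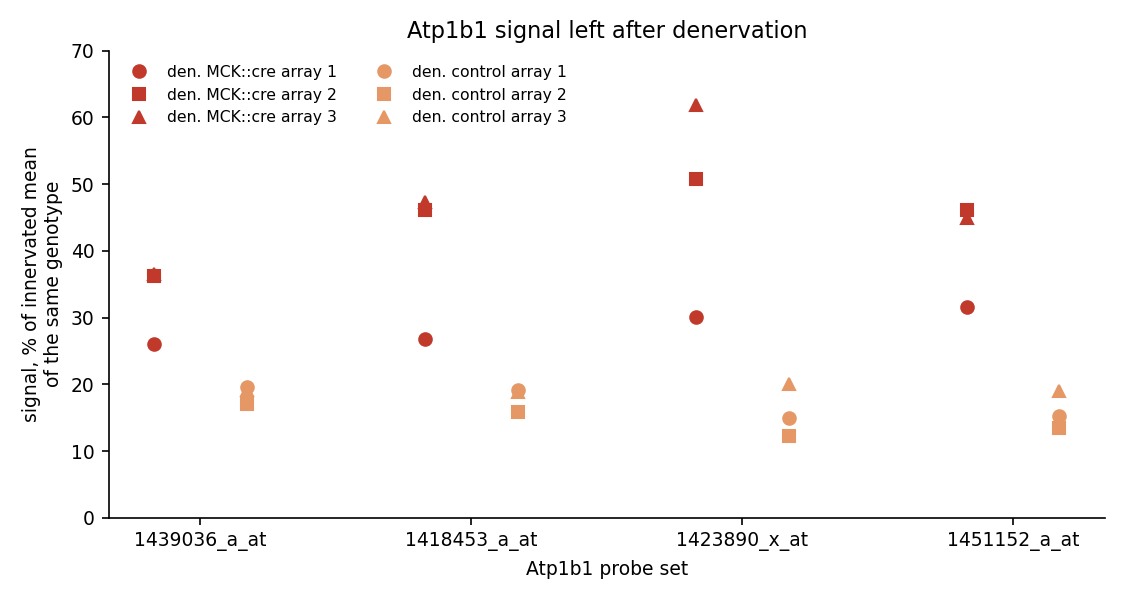
Atp1b1 signal on each denervated array as a percent of the mean innervated signal of the same genotype, for the 4 probe sets that passed the filter, with denervated MCK::cre arrays left of denervated control arrays. Denervated MCK::cre points run from 26.1% to 61.8% and denervated control points from 12.2% to 20.1%.

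The direction of the genotype difference was kept, but its size depended on scaling and its calls on scaling and single arrays. Spike-in centring moved the median of all probe sets to -0.38 for genotype in denervated muscle, and the difference of 1439036_a_at was 0.46 (adjusted p = 0.146) and that of 1451152_a_at 0.87 (adjusted p = 0.0608). The other 2 stayed called at 0.75 (1418453_a_at) and 0.96 (1423890_x_at). Leaving out denervated MCK::cre array 2 or 3 gave 0.76 for 1439036_a_at (adjusted p = 0.0543 or 0.0529) and 1.26 or 1.12 for 1423890_x_at (adjusted p = 0.0811 or 0.0821), so 2 of the 4 were called. Without denervated control array 1 or 2, 1423890_x_at differed by 1.32 or 1.17 (adjusted p = 0.0715 or 0.0833). Over the whole array, 478 probe sets were called with all arrays and 223 to 271 in these 4 fits. A ratio within an array carries no scaling factor. The log2 ratio of Atp1b1 to Atp1b3 was 0.61 to 1.26 on denervated MCK::cre arrays and 0.02 to 0.23 on denervated control arrays. That is a difference of 0.92 with no overlap (exact permutation p = 0.1). The difference was smaller relative to Atp1b2 (0.35, exact permutation p = 0.3), Fxyd1 (0.45, p = 0.1) and Fxyd5 (0.52, p = 0.1), so its size depended on the gene used as reference. The interaction of 1418453_a_at and of 1423890_x_at passed without denervated MCK::cre array 1 (1.39, adjusted p = 0.0232; and 1.84, adjusted p = 0.0497). That of 1451152_a_at passed without innervated control array 2 (1.53, adjusted p = 0.0313).

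Atp1b2, whose protein is also a cell adhesion molecule of glia, fell with denervation in both genotypes. Its representative probe set 1435148_at read 10785.1, 11017.1 and 8036.0 in denervated MCK::cre and 6972.4, 7250.6 and 6795.1 in denervated control muscle. The innervated arrays read 19097.6 and 21126.2 in MCK::cre and 22782.8, 15356.1 and 21079.4 in control muscle. Denervated and innervated arrays did not overlap. The log2 change was -1.03 ± 0.19 in MCK::cre muscle (2.04-fold lower; limma adjusted p = 0.00139) and -1.47 ± 0.17 in control muscle (2.78-fold lower; limma adjusted p = 2.63e-05). The dimmer probe set 1422009_at read 3280.6, 6166.6 and 3646.6 in denervated MCK::cre and 3595.9, 3382.7 and 1842.3 in denervated control muscle, against 11334.7 and 15848.0 in innervated MCK::cre and 10466.5, 9431.8 and 4963.6 in innervated control muscle. Within a genotype, denervated and innervated arrays did not overlap. It was 3.19-fold lower after denervation in MCK::cre (adjusted p = 0.00462) and 2.79-fold lower in control muscle (adjusted p = 0.00402). The MCK::cre call was lost without innervated MCK::cre array 2 (-1.43, adjusted p = 0.0595). With spike-in centring, 1435148_at in MCK::cre (-0.55, adjusted p = 0.159) and 1422009_at in control muscle (-0.65, adjusted p = 0.0861) were no longer called, with the direction kept. The summed signal of 8 Schwann cell and nerve markers was 20060 to 24190 in denervated MCK::cre and 20310 to 21870 in denervated control muscle. On innervated arrays it was 35790 to 36870 in MCK::cre and 25060 to 29620 in control muscle. The list was split: 3 of 8 were called higher and 2 lower in MCK::cre muscle (median log2 change -0.30). In control muscle 2 were called higher and 2 lower (median 0.22). Shares called over all probe sets were 26.3% in MCK::cre and 29.3% in control muscle. The part of the Schwann cell and nerve markers in the fall of Atp1b2 was not tested.

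Between genotypes, the 3 denervated MCK::cre arrays of Atp1b2 1435148_at were all above the 3 denervated control arrays, with a log2 difference of 0.49 ± 0.17 (95% interval 0.13 to 0.85), which did not pass (limma adjusted p = 0.233). On 1422009_at the groups overlapped (0.57 ± 0.33; limma adjusted p = 0.571). The interaction was 0.45 ± 0.25 on 1435148_at (adjusted p = 0.749) and -0.19 on 1422009_at (adjusted p = 0.967), so the probe sets differed in sign and neither passed. In denervated muscle, 7 of the 10 probe sets had no overlap between genotypes: the 4 of Atp1b1, 1435148_at of Atp1b2, and those of Fxyd1 and Fxyd5. Over the whole array 20.2% had none. All 7 were higher in denervated MCK::cre muscle, and all lie on the same 6 arrays.

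Atp1b4 fell to background. Its probe set 1422908_at read 92.1, 35.9 and 133.8 in denervated MCK::cre and 16.4, 172.3 and 152.9 in denervated control muscle. The innervated arrays read 2922.3 and 2315.8 in MCK::cre and 1464.4, 3653.1 and 3642.8 in control muscle. The groups stood far apart, and the signal was at or below the highest trp control on 3 of 3 denervated MCK::cre arrays and on 2 of 3 denervated control arrays. Taking the higher of the background and the measured signal on each denervated array, the signal was at least 16.2-fold lower in MCK::cre muscle and at least 11-fold lower in control muscle. The limma fit on the measured signals, background included, gave an adjusted p of 0.00031 in MCK::cre and 0.000104 in control muscle. These belong to that fit and not to the bounds, and add little for a probe set that passed the filter through its innervated arrays. The genotypes could not be ordered in denervated muscle: the fitted difference was -0.10 with a 95% interval from -1.48 to 1.28 and rests on background signals. With a filter that asks for 6 of 11 arrays above the median, Atp1b4 was not tested.

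Atp1b3 was the 1 gene of the 6 called higher after denervation, in control muscle. Probe set 1423126_at read 15896.4, 14347.3 and 14160.7 in denervated MCK::cre and 16920.7, 15360.3 and 14808.1 in denervated control muscle, against 11896.6 and 10153.9 in innervated MCK::cre and 11631.8, 9009.6 and 10390.9 in innervated control muscle. Every denervated array was above every innervated one (exact permutation p = 0.005 within genotype, the smallest that 200 splits allow). The rise in control muscle was 0.61 ± 0.13 on the log2 scale (1.52-fold higher; limma adjusted p = 0.0041). In MCK::cre muscle the difference was 0.43 ± 0.15 (95% interval 0.10 to 0.75) and missed the threshold (limma adjusted p = 0.0525). With the replicate number as a block it was 0.45 (adjusted p = 0.0454), and with spike-in centring 0.90 (adjusted p = 0.0111), beside 1.44 in control muscle with that centring (adjusted p = 6.13e-05). It also passed without innervated control array 1 (adjusted p = 0.049) or 2 (adjusted p = 0.0249). It did not pass without denervated MCK::cre array 1, 2 or 3 (limma adjusted p = 0.143, 0.0974 or 0.0903). With 1 array left out the MCK::cre value ranged from 0.31 to 0.54. Denervated MCK::cre muscle averaged 14800 ± 952.8 and denervated control muscle 15700 ± 1096 (SD, n = 3 each), a difference of -0.08 ± 0.13 that was not called, and the interaction was -0.18 ± 0.20 (adjusted p = 0.908). The leukocyte and satellite cell marker sums given above were also higher on the denervated arrays than on the innervated ones, and their part in this change was not tested.

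**Figure D3:**
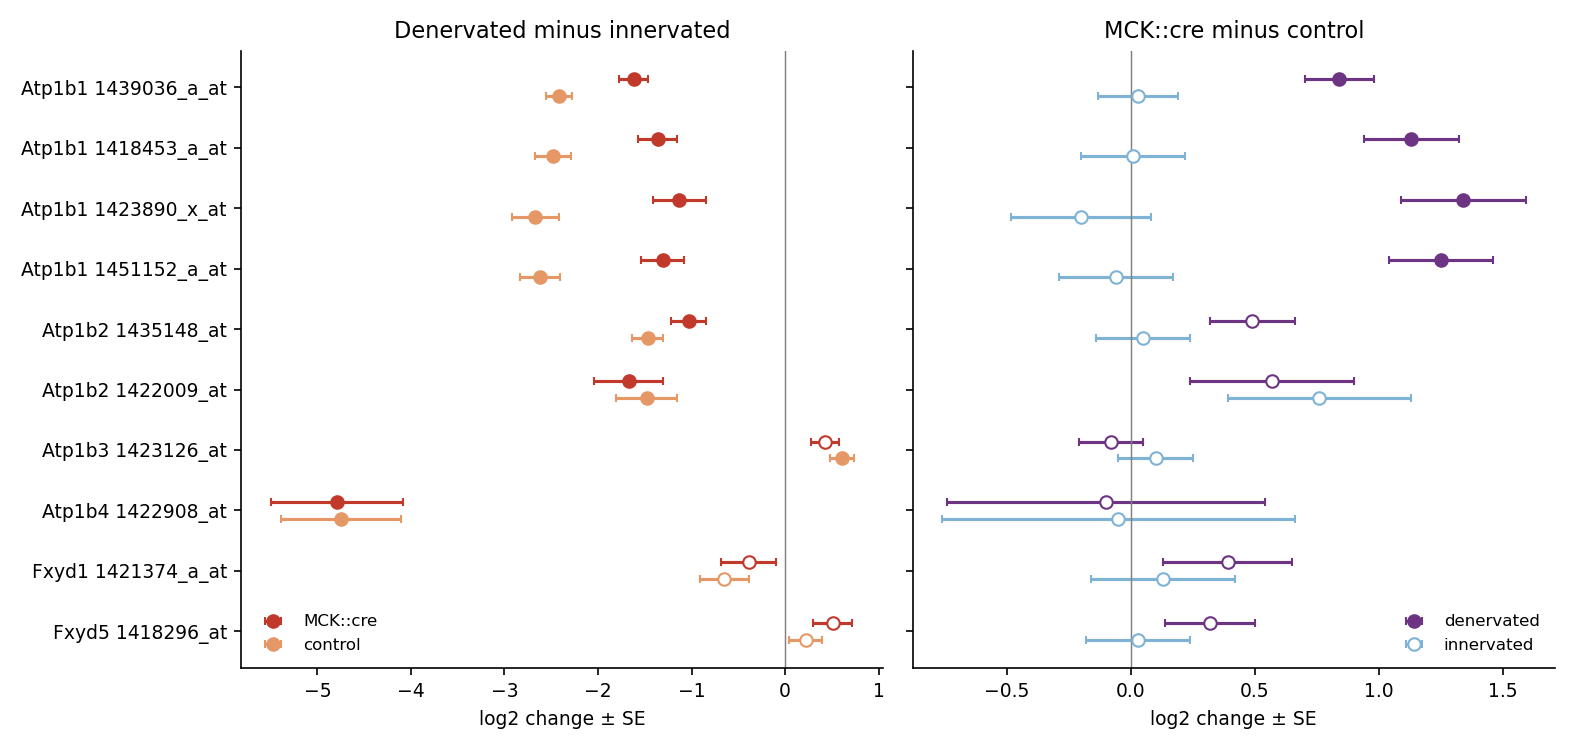
Log2 change of the 10 probe sets that passed the filter, with bars of ± SE. The left panel gives denervated minus innervated muscle in MCK::cre and in control mice. The right panel gives the genotype difference, MCK::cre less control, drawn separately for denervated arrays and for innervated arrays. The Atp1b1, Atp1b2 and Atp1b4 points lie left of 0 for denervation and Atp1b3 right of it. For genotype, the Atp1b1 points of denervated muscle lie right of 0.

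Neither FXYD gene was called in any comparison. Fxyd1 (1421374_a_at) read 46423.9, 43927.7 and 40715.9 in denervated MCK::cre and 34909.5, 29867.5 and 35188.5 in denervated control muscle. The innervated arrays were scattered, at 41299.0 and 79303.0 in MCK::cre and 70646.3, 33338.1 and 60762.5 in control muscle, and denervated and innervated arrays overlapped. The difference with denervation was -0.39 ± 0.29 in MCK::cre (limma adjusted p = 0.352) and -0.65 ± 0.26 in control muscle (95% interval -1.22 to -0.09; limma adjusted p = 0.0798). Over both genotypes the exact permutation p was 0.075. The control value moved with innervated control array 2, the lowest of its group: without it the difference was larger, -0.98 (adjusted p = 0.00345). It passed without innervated MCK::cre array 1 or 2 too (adjusted p = 0.0474 or 0.0472). The MCK::cre value ranged from -0.86 to 0.08 with 1 array left out. In each of the 3 numbered control pairs the denervated array was the lower one. In the 6 control arrays with the replicate number as a block, the control value was -0.65 with an adjusted p of 0.0123. It turned to 0.18 with spike-in centring (adjusted p = 0.653). Between genotypes, the denervated MCK::cre arrays were all above the denervated control arrays, by 0.39 ± 0.26 (adjusted p = 0.655).

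Fxyd5 (1418296_at) read 2653.4, 3120.6 and 2790.3 in denervated MCK::cre and 2276.1, 2228.4 and 2328.7 in denervated control muscle, against 1667.9 and 2403.1 in innervated MCK::cre and 1963.1, 1603.3 and 2384.3 in innervated control muscle. In MCK::cre mice the denervated arrays were all above the innervated ones, whereas in control mice they lay within the innervated range. The difference with denervation was 0.51 ± 0.21 in MCK::cre (95% interval 0.06 to 0.95; limma adjusted p = 0.087) and 0.22 ± 0.18 in control muscle (95% interval -0.18 to 0.61; limma adjusted p = 0.42). Over both genotypes the exact permutation p was 0.02. With median scaling the MCK::cre value was 0.81 (adjusted p = 0.0133). With spike-in centring both were called, at 0.98 in MCK::cre (adjusted p = 0.0131) and 1.04 in control muscle (adjusted p = 0.00199). With 1 array left out the MCK::cre value ranged from 0.24 to 0.77. The highest value came without innervated MCK::cre array 2, which leaves 1 innervated array of that genotype. The MCK::cre value was not called with the replicate number as a block (0.46, limma adjusted p = 0.154). Nor was it called without denervated MCK::cre array 1, 2 or 3 (limma adjusted p = 0.112, 0.215 or 0.152). Denervated MCK::cre muscle was higher than denervated control muscle by 0.32 ± 0.18 (95% interval -0.08 to 0.72; limma adjusted p = 0.57), with no overlap of the 3 arrays each. The sum of 4 epithelial markers was low and overlapped between denervated and innervated arrays of each genotype. It was 1072 to 1938 in denervated MCK::cre and 1350 to 1627 in denervated control muscle. On innervated arrays it was 1712 to 2143 in MCK::cre and 1261 to 2057 in control muscle. Only 2 of the 4 passed the filter, and Cdh1 lay at or below the highest trp control on all denervated control arrays.

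The makeup of the family was then compared within each array, where scaling cancels. The log2 ratio of one probe set to another has no meaning as a level, so only its shift with denervation was read, over 7 pairs, with p-values adjusted over the 7. Atp1b1 over Atp1b3 shifted by -2.54, with changes of -2.05 in MCK::cre and -3.03 in control muscle, and the 6 denervated arrays did not overlap the 5 innervated ones (exact permutation adjusted p = 0.0058). Atp1b2 over Atp1b3 shifted by -1.77 (-1.45 in MCK::cre and -2.08 in control muscle; exact permutation adjusted p = 0.0058, no overlap). Atp1b1 over Atp1b2 shifted by less, -0.77 (-0.59 in MCK::cre and -0.95 in control muscle; exact permutation adjusted p = 0.01), and its groups overlapped. With the mean of all probe sets of a gene that shift was -0.54 (adjusted p = 0.11). The 3 ratios to Atp1b4 were higher on all denervated than on all innervated arrays. That separation was bound to appear, because Atp1b4 passed the filter only through its innervated arrays, and it is not read as a result. No size is given because Atp1b4 was at background on denervated arrays. These 3 ratios are among the 7 pairs, so the adjusted p of the other pairs depends on them. Fxyd5 over Fxyd1 shifted by 0.88, with 0.90 in MCK::cre and 0.87 in control muscle and no overlap (exact permutation adjusted p = 0.0058), although neither gene alone was called. Within denervated muscle Atp1b1 was also higher in MCK::cre mice relative to Fxyd5 (0.52) and Fxyd1 (0.45), each with an exact permutation p of 0.1, the smallest that 20 splits allow, and relative to Atp1b2 by 0.35 (exact permutation p = 0.3).

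**Figure D4:**
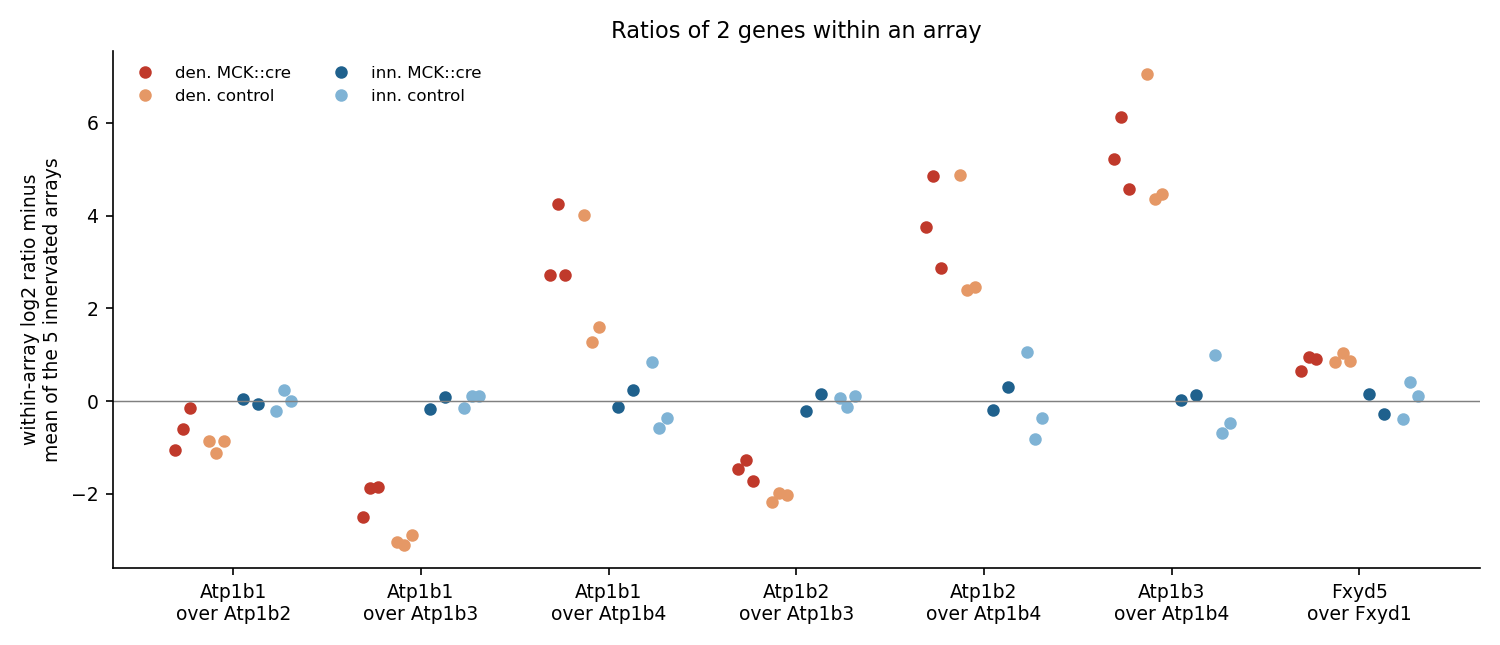
Log2 ratio of pairs of genes within each array, minus the mean ratio of the 5 innervated arrays. From left to right are denervated MCK::cre, denervated control, innervated MCK::cre and innervated control arrays. Before that mean was subtracted, Atp1b1 over Atp1b3 ran from 0.02 to 1.26 on denervated arrays and from 2.95 to 3.23 on innervated ones. Fxyd5 over Fxyd1 is higher on denervated arrays. The ratios to Atp1b4 rest on background signals on denervated arrays, so their separation was bound to appear and their size cannot be read.

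Genes whose signal ran most like each beta subunit were found by the root mean square difference of centred log2 signals over the 11 arrays, a description with no test. For Atp1b1 they were Kcnj12 (0.20), which encodes an inward rectifier potassium channel, Egflam (0.20), which encodes the dystroglycan ligand pikachurin, and Slc7a2 (0.23), which encodes a cationic amino acid transporter. Their log2 changes with denervation were -1.75 in MCK::cre and -2.20 in control muscle for Kcnj12, -1.91 in MCK::cre and -2.61 in control muscle for Egflam, and -1.71 in MCK::cre and -2.60 in control muscle for Slc7a2. Their genotype differences in denervated muscle were 0.42 (Kcnj12), 0.72 (Egflam) and 0.84 (Slc7a2). For Atp1b2 they were Coq10a, Sh3bgr and Prxl2b (0.18 each). For Atp1b3 they were Dnajb11 (0.08), a chaperone of the endoplasmic reticulum, Dcaf1 (0.09) and Cdkn2aipnl (0.09). For Atp1b4 the rule gave Mlf1, Agt and Ky, but its distances rest on background signals in denervated muscle and neither their size nor their order can be read.

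Other genes of ion transport were read from lists. Of 5 other FXYD genes in the annotation, 4 passed the filter and were tested. Fxyd6, a FXYD protein best known from brain, was the 1 of the 4 called after denervation, and it rose in both genotypes. Over all probe sets 26.3% were called in MCK::cre and 29.3% in control muscle, so 1 of 4 is near that share. Fxyd6 averaged 6517 in denervated MCK::cre and 5366 in denervated control muscle, against 3117 in innervated MCK::cre and 2904 in innervated control muscle. The log2 change was 1.07 ± 0.19 in MCK::cre (limma adjusted p = 0.00117) and 0.89 ± 0.17 in control muscle (limma adjusted p = 0.00154). Of 6 calcium pump genes tested, 1 rose and 1 fell in MCK::cre muscle and 1 rose and 2 fell in control muscle, shares to be read against 26.3% of all probe sets called in MCK::cre and 29.3% in control muscle. Atp2a2, the slow-fibre and cardiac calcium pump of the sarcoplasmic reticulum, rose by 1.54 in MCK::cre (adjusted p = 9.58e-06) and 1.85 in control muscle (adjusted p = 4.85e-07). Atp2a1, its fast-fibre counterpart, changed by -0.58 in MCK::cre (adjusted p = 0.0254) and -0.46 in control muscle (adjusted p = 0.038). The single H,K-ATPase gene tested, Atp4b, was not called (-1.34 in control muscle, adjusted p = 0.171).

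Of 13 ion-coupled transporters and channels tested, 8 fell and 3 rose in MCK::cre muscle and 9 fell and 2 rose in control muscle (over all probe sets, 26.3% called in MCK::cre and 29.3% in control muscle), with median log2 changes of -1.04 in MCK::cre and -1.66 in control muscle. The most clearly changed in control muscle were Kcna7 (-3.16, adjusted p = 6.32e-08) and Kcnc1 (-4.75, adjusted p = 7.14e-08), voltage-gated potassium channels, and Kcnj12 (-2.20, adjusted p = 4.87e-07). Slc8a3 encodes a sodium/calcium exchanger that runs on the gradient the pump builds. It was the 1 gene of the 13 called between genotypes after denervation, beside 1.83% of all probe sets. It read 3487.9, 3981.3 and 3250.8 in denervated MCK::cre and 2004.9, 1331.3 and 1796.4 in denervated control muscle, against 7103.4 and 7776.1 in innervated MCK::cre and 8026.8, 7453.5 and 7441.2 in innervated control muscle. The denervated MCK::cre arrays lay between the denervated control and the innervated arrays, with no overlap. Its genotype difference in denervated muscle was 1.07 ± 0.16 (limma adjusted p = 0.00442), and it fell by 1.06 in MCK::cre (adjusted p = 0.000939) and by 2.17 in control muscle (adjusted p = 7.71e-07). The interaction of 1.11 did not pass (adjusted p = 0.111).

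Of 13 kinases, ligases and adaptors that act on the pump or bind its family, 5 fell and 2 rose in MCK::cre muscle and 5 fell and none rose in control muscle, beside the same 26.3% in MCK::cre and 29.3% in control muscle over all probe sets. Called lower over all probe sets were 13.3% in MCK::cre and 14.4% in control muscle, and whether the list differs from the array was not tested. Nedd4l, a ubiquitin ligase of sodium transport proteins, fell by 1.82 in control muscle (adjusted p = 5.81e-06). Prkaca and Prkca encode catalytic kinases that phosphorylate phospholemman, and they changed by -0.91 (adjusted p = 0.000146) and -1.11 (adjusted p = 0.000253) in control muscle. Snw1, whose protein binds the Atp1b4 product in the nucleus, rose in MCK::cre muscle (0.50, adjusted p = 0.0136), beside 0.33 in control muscle (adjusted p = 0.0533). None of the 13 was called for genotype in denervated muscle (limma), beside 1.83% of all probe sets. Fibre markers fell as well: 10 of 10 in MCK::cre (median -0.58) and 8 of 10 in control muscle (median -0.44). The falls of Atp1b1 given above were -1.62 in MCK::cre and -2.42 in control muscle, and the part of the fibre marker change in them was not tested.

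**Figure D5:**
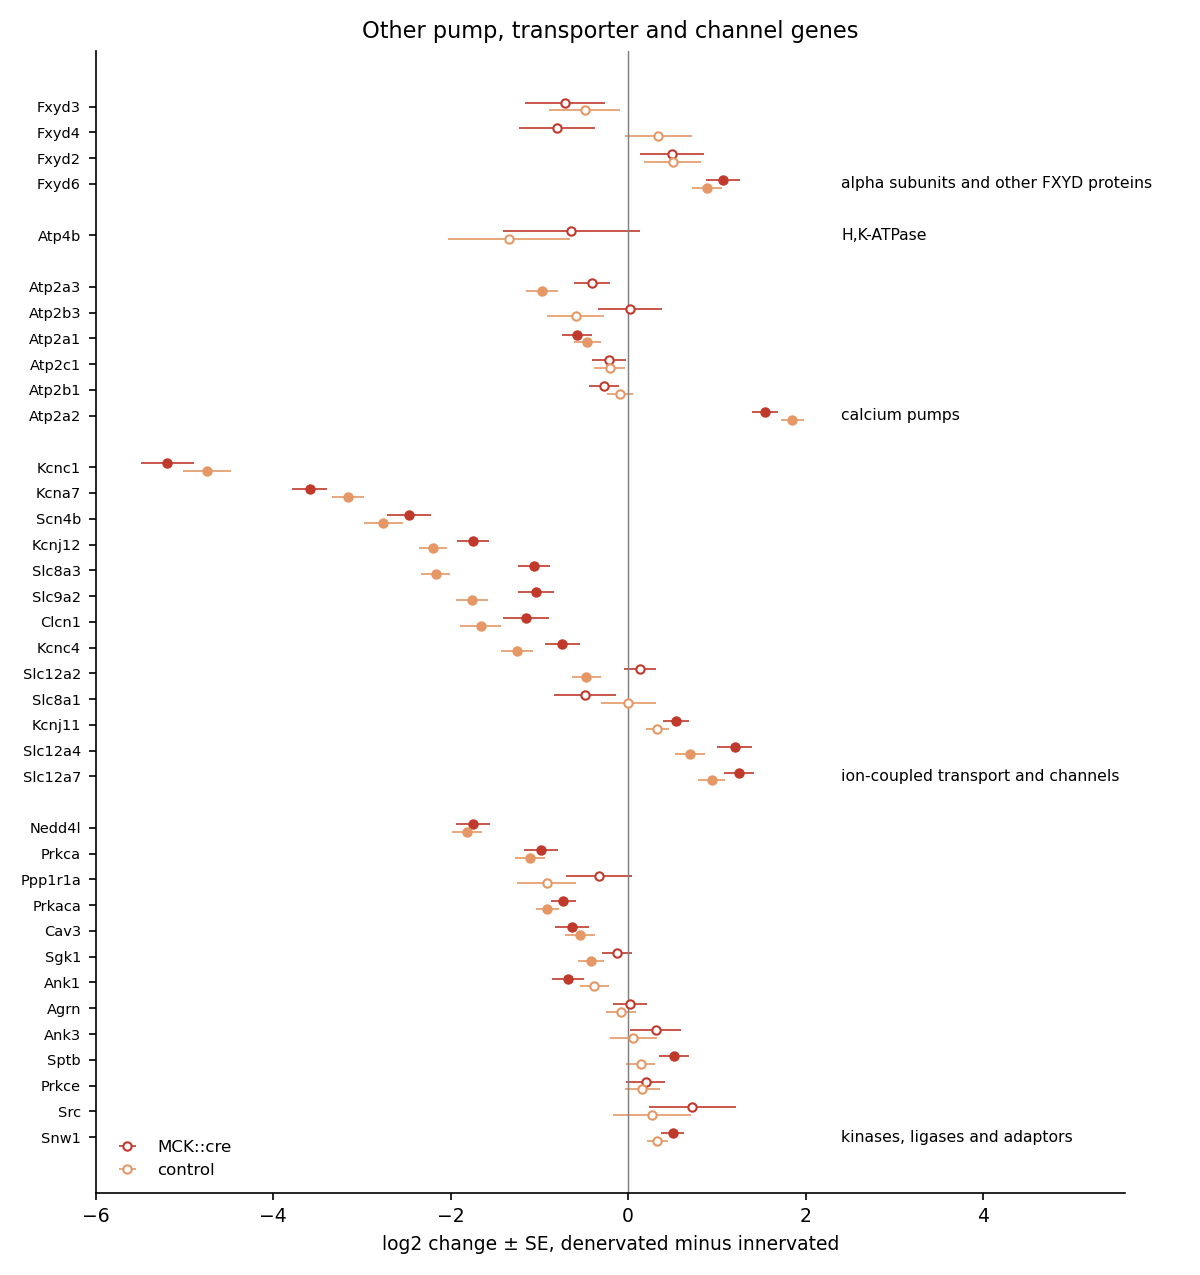
Log2 change with denervation of the tested genes of each ion transport list in MCK::cre and in control muscle, where filled points passed the threshold and open points did not. Most of the 13 transporters and channels lie left of 0, and Fxyd6 and Atp2a2 lie right of it.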

How the data were processed

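RNA of 11 tibialis anterior samples was measured on Affymetrix arrays, and the titles gave the groups. The deposited intensity values, 1 signal per probe set, had been scaled by the authors to a 2% trimmed mean of 2500 per array, as the values show. The labels used here do not name the software. The annotation listed 35890 of the 45101 probe sets, 34958 with 1 symbol. Without further scaling, log2(signal + 16) was analysed. The 64 control probe sets were left out, and 26170 probe sets whose signal exceeded the array median on 2 or more of 11 arrays were kept. The brightest kept probe set stands for a gene, and its others are given beside it. limma 3.58.1 in R 4.3.3 was fitted to all 11 arrays with a mean per group (eBayes with trend, Benjamini-Hochberg over the kept probe sets, threshold 0.05). Its code was tested on simulated data. Exact permutation tests, two-sided, were run on single values and ratios. The number of arrays limits the precision.

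The members, the gene lists and the tests were chosen with earlier results of these data known. The pathway genes named are those of the fixed lists with the smallest adjusted p and those called between genotypes, and a few others, Fxyd6, Snw1, Atp2a2 and Atp2a1 among them, were picked from the lists after their values were seen. Deviations of equally numbered denervated and innervated control arrays correlated at 0.11, 0.22 and 0.30, and those of other pairs at -0.18 to 0.10, so the titles' numbers may pair the control arrays; the fit and the permutation tests reported have no block, which was tried as an alternative. Alternatives were other pseudocounts, scalings, filters, variance models, array weights, a replicate block, a fit of the compared groups alone, and leaving out each array.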

Additional observations from a re-analysis of the deposited data

How the results depend on the processing

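Directions of the called Atp1b1, Atp1b2, Atp1b3 and Atp1b4 changes were kept under every alternative run. Of 1095 values of single probe sets under alternatives, 1058 stayed on their side of the threshold, 21 newly passed it and 16 no longer did. The count of Atp1b1 probe sets called between genotypes in denervated muscle was 4, became 2 with spike-in centring and ranged from 2 to 4 with 1 array left out. For the interaction the count was 0, became 1 with array weights (1451152_a_at, 1.49, adjusted p = 0.0429) and ranged from 0 to 2 with 1 array left out. With 1 array left out, the count for denervation in control muscle ranged from 8 to 9. In MCK::cre muscle calls were lost when an innervated array was left out, which leaves 1 in that group. The shift of Atp1b1 over Atp1b2 was -0.54 (exact permutation adjusted p = 0.11) with the mean of all kept probe sets of each gene. Without a variance trend 1423890_x_at lost its genotype call (adjusted p = 0.0629), and its denervation call in MCK::cre muscle was lost with median scaling (-0.82, adjusted p = 0.0666) and spike-in centring (-0.66, adjusted p = 0.11).

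With the replicate number as a block over all 11 arrays, counts were 8 for denervation in MCK::cre and 8 in control muscle, 4 for genotype in denervated muscle and 0 for the interaction. Beside Atp1b3 in MCK::cre muscle (0.45) and, in the 6 control arrays alone, a fit chosen after seeing the data, Fxyd1 (-0.65), the block changed no other call. Leaving out an innervated MCK::cre array leaves 1, whose spread is taken to be that of the other groups. Probe sets near background, such as Atp1b4 after denervation, give only bounds.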
